A study of Homo sapiens with 6 samples.

Results

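Metallothionein genes and the genes that sense and export zinc were followed in subcutaneous tumours of U87-EV, labelled as human glioblastoma, grown in immunodeficient mice. The group comprised 10 genes. These were the metallothioneins MT1E, MT1F, MT1G, MT1H, MT1M, MT1X, MT2A and MT3, the zinc-sensing transcription factor MTF1 and the zinc exporter SLC30A1. They were chosen by name for their shared pathway, as all 18 probe sets that the platform annotation assigns to 1 of these symbols alone, out of 41097 single-gene probe sets for 19775 genes. No expression value was used to choose them, but earlier results of these data were known.

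The bevacizumab tumours came from mice given bevacizumab, an antibody directed at human VEGF-A, the main growth signal of blood vessels, at 10 mg/kg into the peritoneum at intervals of 3 days. The control tumours came from mice given saline. Both groups consisted of U87-EV cells, called U87 in the growth protocol, injected under the skin of female BALB/c SCID mice, aged 6 to 8 weeks, together with Matrigel, and dosing started at a tumour volume of 150 to 200 mm3 and ended at a diameter of about 15 to 30 mm. Each group held 3 arrays, and the cohorts began with 5 mice per group. The labels tie no array to a mouse and do not explain the suffix EV, so each p-value rests on the spread between arrays, which may be partly technical. All tumours derive from 1 cell line, the SCID host lacks working T and B cells, and the human array did not separate host RNA from tumour RNA.

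Metallothioneins are small, cysteine-rich proteins that hold zinc and copper. When free zinc rises, MTF1 binds metal response elements in DNA and switches on metallothionein genes and SLC30A1, which moves zinc out of the cell. Metallothionein genes are also known to respond to cadmium, glucocorticoids, inflammatory cytokines and low oxygen. In the brain MT1 and MT2 proteins are most abundant in astrocytes, whereas MT3 is made largely in neurons and astrocytes and was first described as a growth inhibitory factor.

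The promoters of MT2A, MT1X and SLC30A1 are shown because they hold matches to the core motif of the zinc sensor, before some of the bright metallothionein genes and before the exporter. Each run gives the 250 bases before the annotated gene start, 5′ to 3′ on the gene's strand, from RefSeq on GRCh38.p14. Capitals mark matches on either strand to the core of the metal response element, searched as TGCACNC and TGCGCNC.
MT2A, chr16:56608334-56608583, plus strand: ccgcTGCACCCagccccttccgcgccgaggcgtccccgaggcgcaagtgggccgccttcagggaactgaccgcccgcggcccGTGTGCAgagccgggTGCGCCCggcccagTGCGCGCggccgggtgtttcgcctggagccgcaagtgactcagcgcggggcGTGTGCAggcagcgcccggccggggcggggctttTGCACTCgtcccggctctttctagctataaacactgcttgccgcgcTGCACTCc
MT1X, chr16:56682220-56682469, plus strand: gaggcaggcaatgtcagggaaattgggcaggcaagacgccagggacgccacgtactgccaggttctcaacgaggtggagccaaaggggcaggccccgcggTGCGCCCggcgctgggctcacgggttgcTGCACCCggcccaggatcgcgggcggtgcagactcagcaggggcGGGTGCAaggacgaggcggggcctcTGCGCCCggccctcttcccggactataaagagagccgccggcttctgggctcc
SLC30A1, chr1:211579162-211579411, minus strand: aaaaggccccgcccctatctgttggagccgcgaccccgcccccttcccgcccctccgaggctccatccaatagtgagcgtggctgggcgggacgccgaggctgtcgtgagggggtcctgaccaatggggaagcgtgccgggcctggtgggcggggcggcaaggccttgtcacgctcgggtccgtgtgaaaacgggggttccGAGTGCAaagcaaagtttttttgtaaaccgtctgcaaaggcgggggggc

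The sequence table held promoters for 5 of the 10 genes. The core matched 8 times in the 250 bases before MT1H, 7 times before MT2A, 4 times before MT1X and once before SLC30A1, whereas the MTF1 window had 0 matches. Among 35116 promoters of the same length, 24.8% held at least 1 match, 0.37% at least 4 and 0.0313% at least 7. The core of the hypoxia response element, searched on both strands as ACGTG and GCGTG, matched 3 times before SLC30A1, 2 times before MTF1 and once each before MT1X and MT2A, and 43.2% of all promoters held at least 1 such match. The match before MT2A shared bases with a metal response core. A match describes these letters only and does not show binding.

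**Figure D1:**
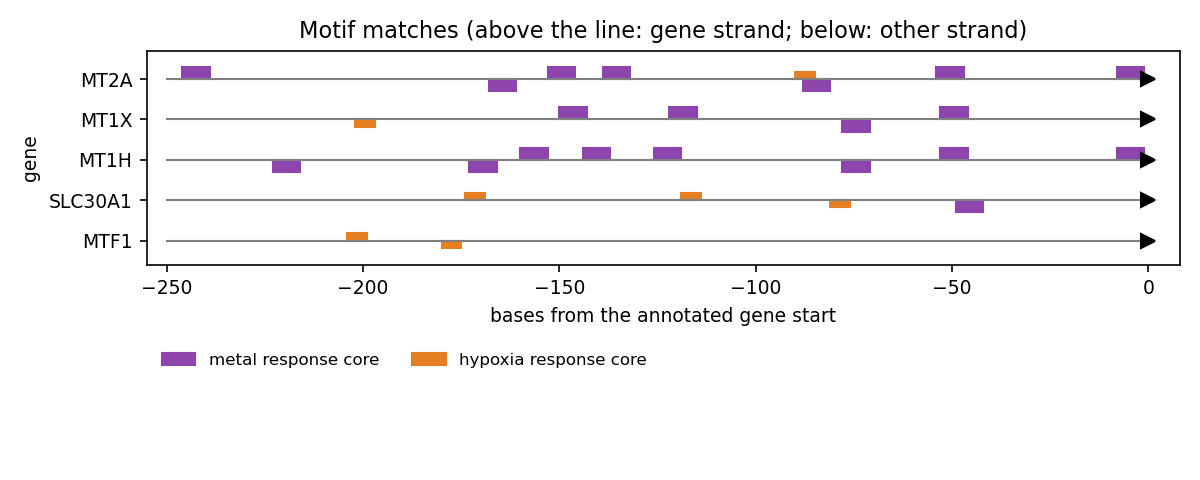
Positions of motif matches in the 250 bases before the annotated start (arrowhead) of 5 genes, with the distance from the start in bases on the x axis. Purple boxes are metal response cores and orange boxes hypoxia response cores, drawn above the line for the gene's strand and below it for the other strand. MT1H has 8 metal response cores, MT2A 7, MT1X 4, SLC30A1 1 and MTF1 0.

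All 8 metallothionein genes lie together on chromosome 16 within 94.7 kb (GRCh38.p14), from MT3 (56589528 to 56591085) at one end to MT1X (56682470 to 56684196) at the other. MT2A (56608584 to 56609497), MT1E, MT1M, MT1F, MT1G and MT1H lie between them in that order. MTF1 and SLC30A1 lie apart on chromosome 1, at 37809574 to 37859592 and 211571568 to 211579161. The MT1 genes are near-identical copies, and 9 of the 12 metallothionein probe sets carry Affymetrix's suffix _x_at, given to probe sets whose probes may bind several transcripts. A value named for 1 MT1 gene may therefore hold signal from its neighbours, and the values are not independent readings.

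Values are the deposited expression values on the log2 scale. The median of an array lay between 2.49 and 2.51 and its highest value between 15.74 and 15.99, and profiles over all probe sets correlated at 0.992 to 0.997 within groups and at 0.986 to 0.993 between them. The arrays read high for the U87 and mesenchymal glioma markers, with VIM between 15.00 and 15.25 and CD44 between 13.93 and 14.11. The glial markers GFAP, AQP4, S100B, OLIG1, OLIG2 and SOX10 lay below 4 on every array, at the low end of the table, whereas SLC1A3 of the astrocyte list (9.54 to 10.35) and PDGFRA of the oligodendrocyte lineage list (11.27 to 11.88) read above it. Macrophage markers were below 4 in 5 of 6 cases, the exception being AIF1.

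No metallothionein gene differed past the threshold between the groups. Of the 10 genes, 9 had a mean log2 value of at least 4 and were tested, and MT3 was not. With limma and Benjamini-Hochberg adjustment over 10233 genes, 0 of the 9 passed an adjusted p of 0.05, whereas 19.1% of all genes tested passed (9.09% were higher and 9.97% lower with bevacizumab). At an unadjusted p under 0.05 there was 1 member, SLC30A1, and such genes made up 35.8% of all tested. On the level of probe sets, adjusted over 18475 of them, 1 of 15 tested member probe sets passed against 15.4% of all. It was a probe set of SLC30A1 and lower with bevacizumab, so 0 members were higher against 7.43% of all probe sets, and 1 was lower against 7.96%. The median log2 difference was 0.05 over the 9 member genes and -0.01 over all genes tested.

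**Figure D2:**
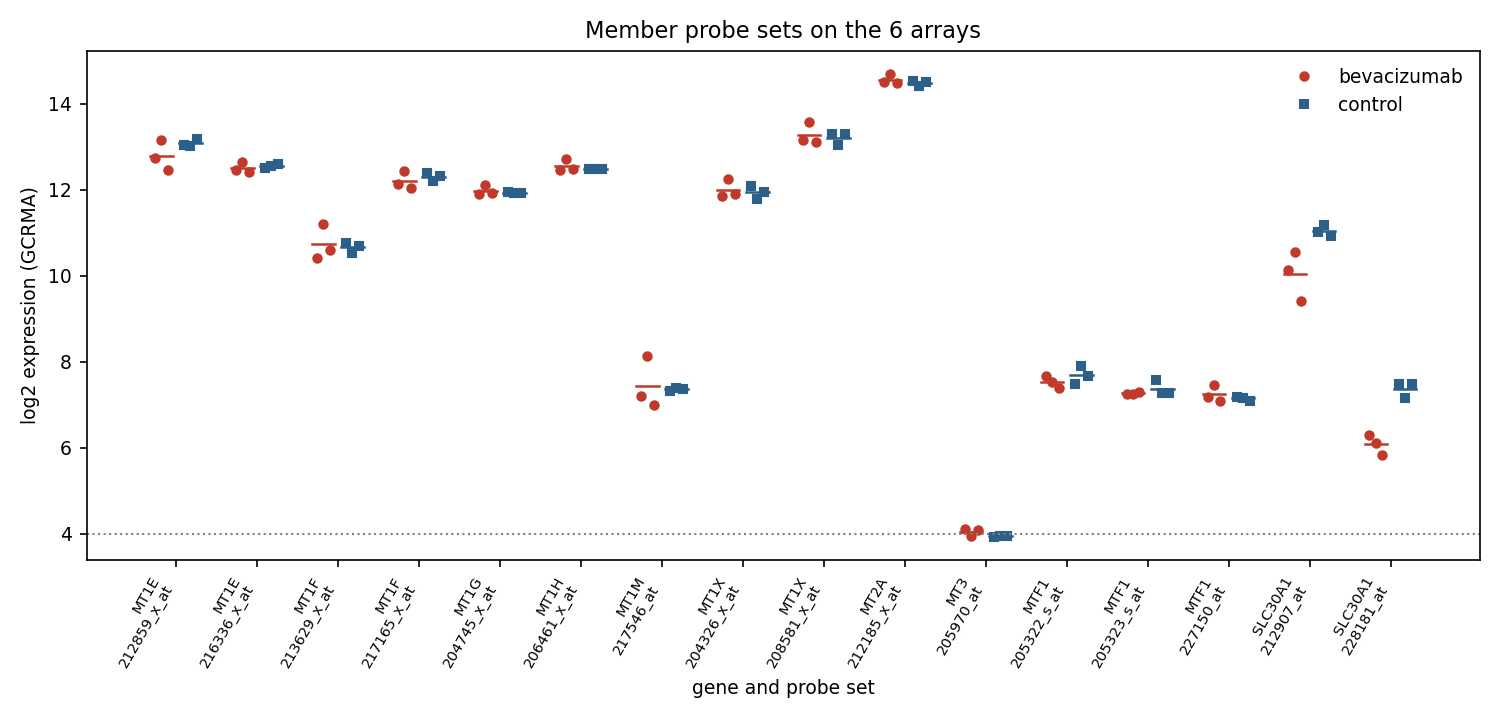
Log2 expression of 16 member probe sets on each array, with bevacizumab (red circles) left of control (blue squares) and short lines at the group means. The dotted line marks the minimum mean of 4 for testing, and probe sets 210472_at (MT1G) and 242716_at (SLC30A1), at the low end of the table on every array, are not drawn. Both groups overlap for every metallothionein probe set and separate for the 2 drawn probe sets of SLC30A1.

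MT2A, the gene of the principal metallothionein 2, read 14.50, 14.69 and 14.47 on bevacizumab arrays 1, 2 and 3, against 14.52, 14.42 and 14.50 on control arrays 1, 2 and 3. The groups overlapped, and all 6 values lay within 0.27 of each other. The mean was 14.55 ± 0.12 with bevacizumab and 14.48 ± 0.05 in controls (SD, n = 3 each). The log2 difference was 0.07, with a 95% interval of -0.16 to 0.30 (limma adjusted p = 0.61), which corresponds to 0.896-fold to 1.23-fold.

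MT1X, a broadly expressed MT1 gene, was read by a pair of probe sets. The brighter, 208581_x_at, gave 13.15, 13.57 and 13.10 with bevacizumab, against 13.30, 13.05 and 13.28 in controls. Bevacizumab 2 was the highest array and control 2 the lowest. The difference was 0.07 (95% interval -0.31 to 0.44, limma adjusted p = 0.79). The other probe set, 204326_x_at, had a difference of 0.05 and the same highest and lowest arrays.

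MT1E showed the largest difference among the tested metallothionein genes with all arrays included. Probe set 212859_x_at read 12.74, 13.16 and 12.47 with bevacizumab, against 13.03, 13.02 and 13.19 in controls. Bevacizumab 1 and 3 lay below all controls, while bevacizumab 2 lay among them. The means were 12.79 ± 0.35 with bevacizumab and 13.08 ± 0.09 in controls (SD, n = 3 each), a difference of -0.29 with a 95% interval of -0.74 to 0.16 (limma adjusted p = 0.30). Its other probe set, 216336_x_at, read 12.45, 12.65 and 12.41 with bevacizumab, against 12.51, 12.54 and 12.60 in controls, a difference of -0.05. The same pair of bevacizumab arrays lay below all controls there, by less. The gene's difference was -0.48 without bevacizumab 2 (adjusted p = 0.075) and -0.13 without bevacizumab 3, where that of MT1M was larger at 0.32.

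The probe sets of MT1F differed in sign. The brighter, 217165_x_at, read 12.14, 12.43 and 12.04 with bevacizumab, against 12.39, 12.19 and 12.32 in controls (difference -0.10, 95% interval -0.41 to 0.22, limma adjusted p = 0.61). Probe set 213629_x_at read 10.41, 11.19 and 10.60 with bevacizumab, against 10.76, 10.53 and 10.69 in controls, a difference of 0.07. On both, bevacizumab 2 was the highest of the 6 arrays.

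MT1G and MT1H were nearly equal on the 3 controls. MT1G probe set 204745_x_at read 11.90, 12.10 and 11.92 with bevacizumab, against 11.94, 11.92 and 11.92 in controls. MT1H read 12.45, 12.70 and 12.48 with bevacizumab, against 12.48, 12.48 and 12.48 in controls. Bevacizumab 2 was the highest array in both and the other 5 lay close together, and the differences were 0.05 and 0.07, with 95% intervals of -0.17 to 0.26 and -0.17 to 0.30. The other MT1G probe set, 210472_at, stayed between 2.23 and 2.24 on all arrays.

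MT1M, whose tested probe set is the only metallothionein one among those tested without the _x_at suffix, was the dimmest tested metallothionein and the most variable. It read 7.21, 8.14 and 6.99 with bevacizumab, against 7.32, 7.38 and 7.36 in controls. The SD was 0.61 with bevacizumab and 0.03 in controls (n = 3 each), so the bevacizumab arrays fell on both sides of a narrow control range. The difference was 0.09 with a 95% interval of -0.63 to 0.81 (limma adjusted p = 0.85). Without bevacizumab 2 it was -0.26, which also did not pass (adjusted p = 0.17).

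MT3, the brain-type metallothionein, was read at the edge of detection. Its probe set gave 4.12, 3.94 and 4.08 with bevacizumab, against 3.94, 3.96 and 3.94 in controls. Its mean over the arrays lay just under the minimum of 4, so it was not tested. The nearest relative outside the group with a bright probe set, MT1HL1, is a metallothionein 1H-like gene on chromosome 1. It read 13.08, 13.38 and 13.06 with bevacizumab, against 13.19, 13.11 and 13.22 in controls (difference -0.0039, limma adjusted p = 0.99), and its probe set is also of the _x_at kind. MT4, the metallothionein of stratified epithelium, lay at 2.24 on every array, and the other 8 metallothionein genes and pseudogenes listed had no single-gene probe set analysed here.

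Across the 7 tested metallothionein genes the adjusted p ran from 0.30 to 0.85 and the median absolute difference was 0.07, against 0.26 over all genes tested. Their 95% intervals together spanned -0.74 (MT1E) to 0.81 (MT1M), or 0.601-fold to 1.75-fold, though they were narrower for most of these genes, at -0.17 to 0.26 for MT1G and -0.16 to 0.30 for MT2A. Opposite changes of single genes could not be read separately where probe sets bind several of their transcripts.

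**Figure D3:**
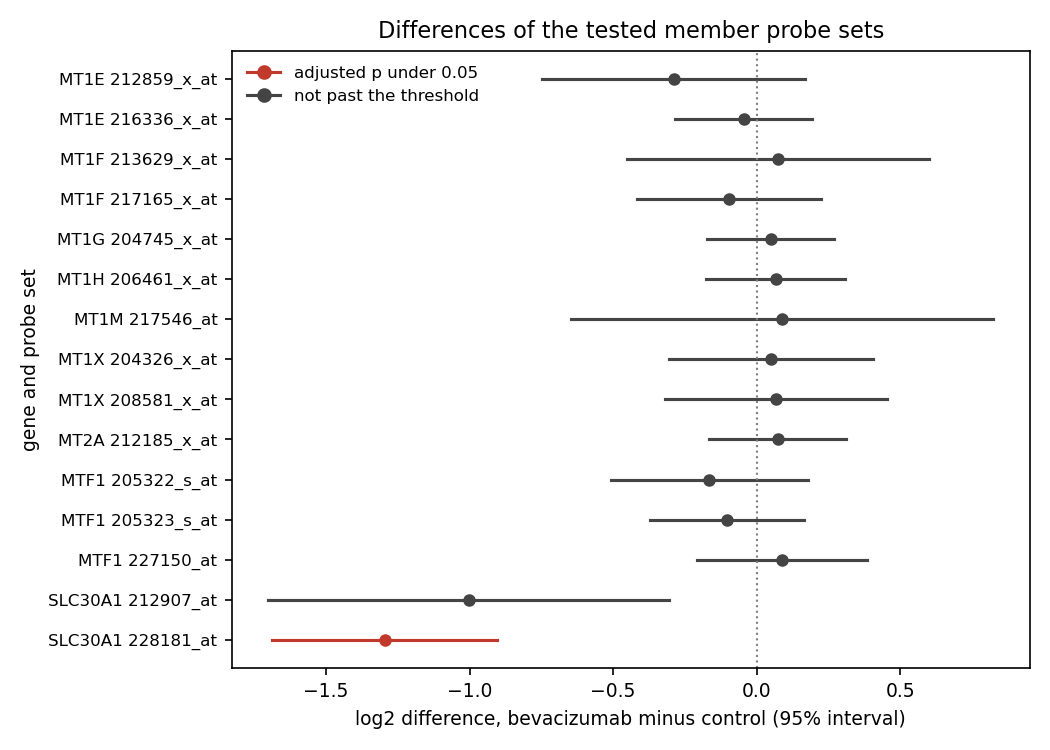
Log2 difference, bevacizumab minus control (dot), with its 95% limma interval (line), for the 15 tested member probe sets. The red line marks an adjusted p under 0.05, which holds for SLC30A1 probe set 228181_at at -1.30, and the metallothionein intervals all include 0.

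The metallothionein values varied by array within the bevacizumab group. Of the 10 metallothionein probe sets with a mean of at least 4, 9 were highest on bevacizumab 2, whereas 21.5% of all tested probe sets were highest on that array. The exception was MT1E probe set 212859_x_at, highest on control 3. Relative to the control mean, the median over the 10 probe sets was -0.10, 0.22 and -0.08 on bevacizumab 1, 2 and 3, against 0.02, -0.06 and 0.02 on control 1, 2 and 3. The SD was larger with bevacizumab than in controls for 10 of the 10, with a median of 0.21 in bevacizumab and 0.07 in controls, and for 61.5% of all tested probe sets. The shared probe sequences make these 10 readings dependent on one another.

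**Figure D4:**
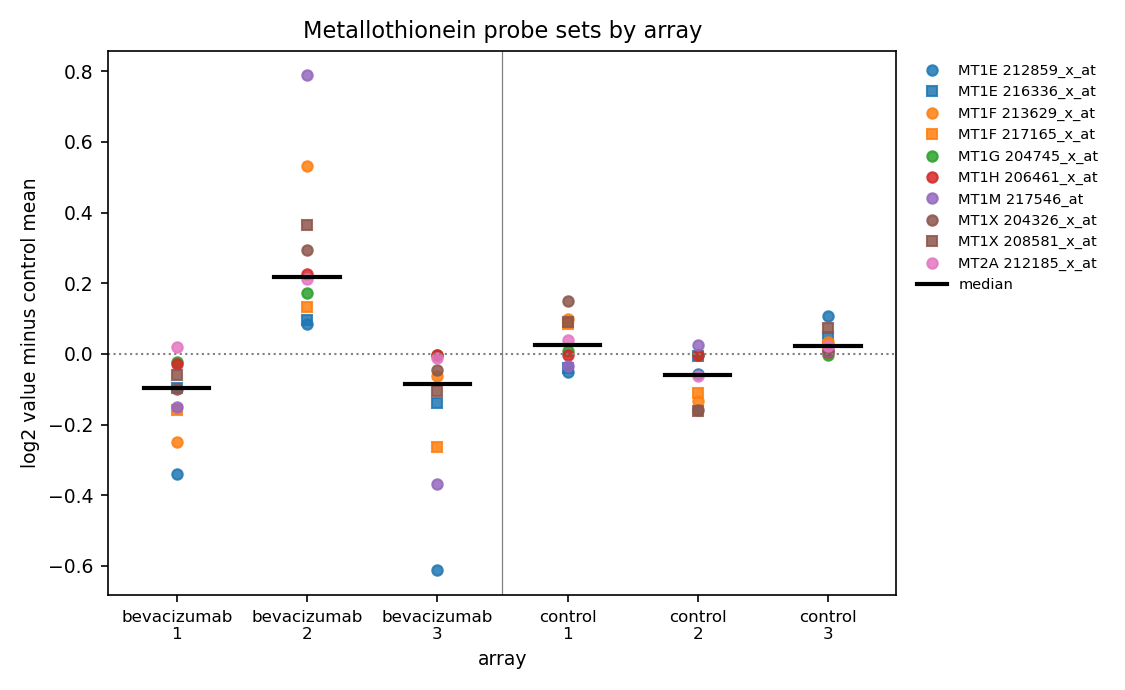
Log2 value minus the control mean for the 10 bright metallothionein probe sets on each array, with colours for genes and a bar at the median. The bevacizumab 2 median is 0.22, and the other 5 medians lie between -0.10 and 0.02.

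The genes whose profile over the 6 arrays came closest to the mean metallothionein profile were named by the root mean square difference of centred log2 values. They were OGG1, a DNA repair glycosylase gene, at 0.031, BDH2 at 0.042, the retinoic acid binding protein gene CRABP2 at 0.043, BRD7 at 0.044 and TBP, the TATA-binding protein gene, at 0.045. OGG1 read 7.98, 8.37 and 7.90 with bevacizumab, against 8.17, 8.11 and 8.13 in controls, highest on bevacizumab 2 with bevacizumab 1 and 3 under the controls. None of these 5 passed the threshold (limma adjusted p between 0.82 and 0.96). Both points follow from the choice, because the metallothionein profile itself was highest on bevacizumab 2 and differed little between groups. The root mean square of that profile was 0.15, the distance at which a flat gene would lie.

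MTF1, the zinc-sensing activator itself, had 3 probe sets of similar brightness and no common direction. Probe set 205322_s_at read 7.66, 7.52 and 7.39 with bevacizumab, against 7.49, 7.91 and 7.68 in controls. The groups overlapped, and the difference was -0.17 (95% interval -0.50 to 0.17, limma adjusted p = 0.42). Probe set 205323_s_at differed by -0.10 and 227150_at by 0.09, again with overlapping groups.

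SLC30A1, the exporter that MTF1 is known to activate, was lower with bevacizumab on both probe sets that gave signal, and 1 of them passed. Probe set 228181_at read 6.29, 6.11 and 5.83 with bevacizumab, against 7.48, 7.16 and 7.49 in controls. All bevacizumab arrays lay below all controls. The mean was 6.08 ± 0.23 with bevacizumab and 7.37 ± 0.19 in controls (SD, n = 3 each), a log2 difference of -1.30 (SE 0.16, 95% interval -1.69 to -0.90, limma adjusted p = 0.0086 over all probe sets). The brighter probe set, 212907_at, which stood for the gene, read 10.14, 10.54 and 9.42 with bevacizumab, against 11.02, 11.17 and 10.92 in controls. Again the groups did not overlap, as for 41.0% of all genes and 39.0% of all probe sets tested. Its difference was -1.003 (SE 0.28, 95% interval -1.68 to -0.32), and it missed the threshold narrowly (limma adjusted p = 0.055 over all genes). Bevacizumab 3 was the lowest array on both, and the third probe set, 242716_at, lay at 2.23 on every array.

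The gene-level call of SLC30A1 changed with the settings while its direction did not. It passed with a minimum mean of 6 (adjusted p = 0.035), with arrays centred on their median (-1.04, adjusted p = 0.033), with quantile normalization (-1.02, adjusted p = 0.033), with the mean of its 3 probe sets (-0.77, adjusted p = 0.014) and with a variance trend (adjusted p = 0.048). The mean of the 3 probe sets includes 242716_at, which lay at 2.23 on every array and so carried no signal. SLC30A1 also passed without bevacizumab 2 (-1.26, adjusted p = 0.041) or without bevacizumab 3 (-0.70, adjusted p = 0.0497). The call was not made without bevacizumab 1 (limma adjusted p = 0.093) or without control 1, 2 or 3 (0.15, 0.16 and 0.12). Nor was it made with no filter (0.22), a floor of 4 (0.054) or replicate number as a block (0.054). With the ACTB measure given below as a covariate it did not pass either (limma adjusted p = 0.18). A measure of RNA quality stood beside these values: the ACTB log2 signal at the 3' end exceeded that at the 5' end by 1.81 ± 0.16 with bevacizumab and by 1.38 ± 0.26 in controls (SD, n = 3 each, two-sided exact permutation p = 0.2, smallest possible 0.1), and the ranges overlapped. For GAPDH the same quantity was -0.059, -0.011 and 0.0069 with bevacizumab, against -0.11, -0.11 and -0.14 in controls, so the groups did not overlap (difference 0.095, two-sided exact permutation p = 0.1, which is as small as 3 against 3 can give). With the ACTB measure as a covariate, probe set 228181_at differed by -1.50 and did not pass (adjusted p = 0.083), and the whole table held 13 genes higher and 11 lower past the threshold. The part of RNA quality in the SLC30A1 values was not tested beyond this fit, and GAPDH was not used as a covariate.

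Of the 6 mural cell markers 2 were lower with bevacizumab, RGS5 and KCNJ8, and the other 4 did not pass. Among all genes tested 9.97% were lower. KCNJ8 read 2.78, 3.52 and 3.13 with bevacizumab, all under 4, against 5.37, 6.15 and 5.47 in controls. The gene reached the minimum mean of 4 only through the controls, so its call leans on that filter and adds no support. RGS5 read 6.96, 7.29 and 6.59 with bevacizumab, against 9.87, 10.03 and 9.48 in controls, whereas PDGFRB read 10.05, 10.38 and 10.30 with bevacizumab, against 10.16, 9.82 and 9.83 in controls. The summed level of the 6 was 10.51 to 10.93 with bevacizumab against 11.04 to 11.33 in controls on the log2 scale. Fibroblast markers summed to 15.98 to 16.23 with bevacizumab and 16 to 16.11 in controls, and 0 of 6 passed. Of all genes tested 19.1% passed in either direction. Of the 6 endothelial markers, CDH5, VWF, KDR and TIE1 lay below 4 on every array, while PECAM1 (6.05 to 6.50) and TEK (5.48 to 6.17) lay above it, and neither passed. Host cells in these tumours are mouse cells, and how far mouse RNA bound the human probes was not tested. Levels of these markers, and of the macrophage markers, are therefore no count of host cells. The part of host or stromal RNA in the SLC30A1 values was not tested, and in bulk tumour RNA fewer cells of a type and less RNA per cell cannot be told apart.

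Among zinc import genes, SLC39A8, SLC39A14 and SLC39A10 rose on the probe set that stood for the gene. Zinc enters the cytosol through ZIP proteins, encoded by SLC39 genes. Of 14 such genes 11 were tested, of which 3 rose, none fell and 8 did not pass, while 9.09% of all genes tested rose. A dimmer probe set of SLC39A9, 217859_s_at, did fall, at 6.04, 5.67 and 6.00 with bevacizumab, against 7.20, 6.74 and 6.68 in controls (-0.97, limma adjusted p = 0.022 over all probe sets), while the brighter one, which stood for the gene, differed by -0.02. The median difference was 0.27, against -0.01 over all genes. The list was drawn up with earlier results of these data known, so its counts are a description.

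SLC39A8, an importer of zinc and manganese that is induced by inflammation, read 10.80, 10.66 and 10.96 with bevacizumab, against 9.43, 9.68 and 9.88 in controls. The groups did not overlap, and the difference was 1.14, or 2.21-fold (limma adjusted p = 0.0071). Its other tested probe set, 219869_s_at, had a difference of 1.25 and also passed. SLC39A8 passed in 6 of 6 fits with an array left out.

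SLC39A14, the importer that brings zinc into liver cells during the acute phase response in mice, read 12.87, 12.48 and 12.87 with bevacizumab, against 11.75, 11.88 and 12.01 in controls. The difference was 0.86, or 1.81-fold (limma adjusted p = 0.013), and the call was lost without control 1 or control 2. Its other tested probe set, 1555434_a_at, differed by 0.46 with overlapping groups and did not pass (adjusted p = 0.27), and the mean of its probe sets differed by 0.44 without passing (adjusted p = 0.053). SLC39A10, which MTF1 is known to repress in mouse and zebrafish, read 10.60, 10.00 and 10.88 with bevacizumab, against 9.53, 9.43 and 9.53 in controls. It was 1.99-fold higher (difference 0.99, limma adjusted p = 0.031), with a call that held in 1 of 6 fits with an array left out, the one without bevacizumab 2. SLC39A13, a zinc transporter of the early secretory pathway, differed by 0.48 and did not pass (adjusted p = 0.075), although its groups did not overlap. With the ACTB difference as a covariate none of the 3 passed, at differences of 0.96, 0.74 and 1.17 for SLC39A8, SLC39A14 and SLC39A10.

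None of the other zinc exporters tested passed. Of 9 further SLC30 genes, 5 were tested and 0 passed with limma, also 0 at an unadjusted p under 0.05, and 4 (SLC30A2, SLC30A3, SLC30A8 and SLC30A10) lay under the minimum. Of all genes tested 19.1% passed and 35.8% had an unadjusted p under 0.05, and 5 genes are too few to set against these shares. SLC30A5, which loads zinc into the secretory pathway, differed by -0.15 (adjusted p = 0.28) and SLC30A9 by 0.13 (adjusted p = 0.32). SLC30A7 and SLC30A4 differed by -0.07 and 0.09. Whether SLC30A1 differs from these exporters in its response was not tested.

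**Figure D5:**
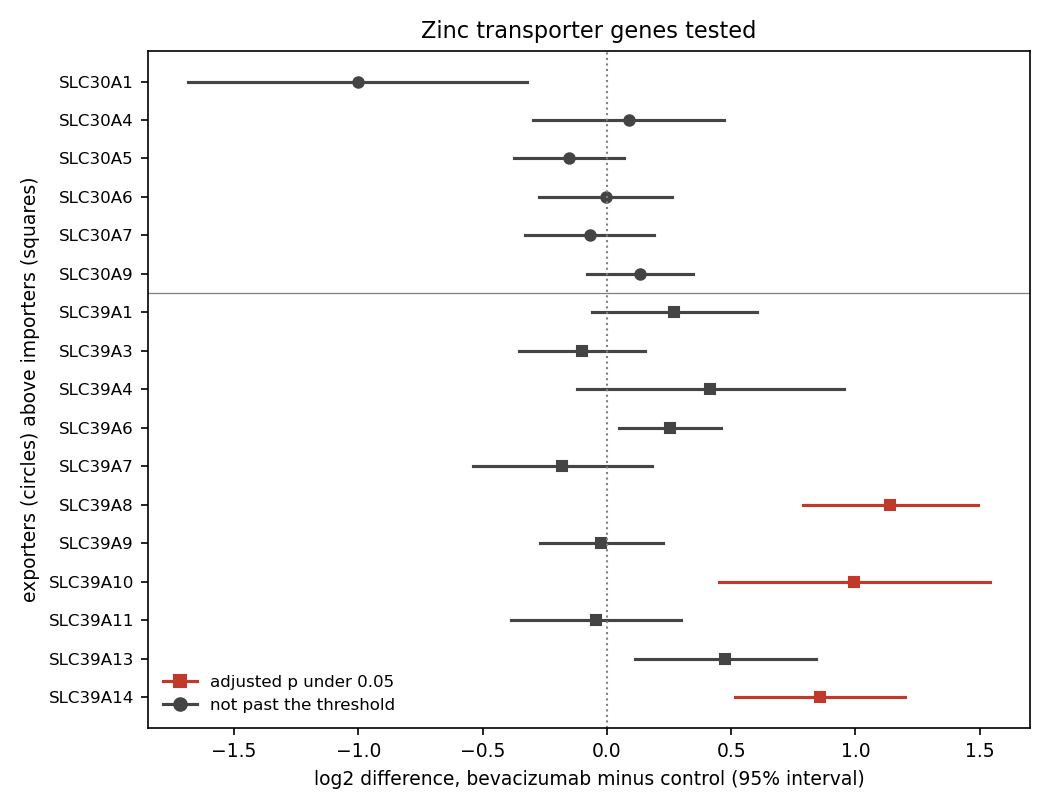
Log2 difference, bevacizumab minus control, with its 95% limma interval before adjustment, for 6 SLC30 exporter genes (circles, above the line) and 11 SLC39 importer genes (squares, below it). Red marks an adjusted p under 0.05. SLC30A1 lies lowest at -1.003, and SLC39A8 (1.14), SLC39A10 (0.99) and SLC39A14 (0.86) lie on the other side of 0.

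Of 10 copper genes tested 1 rose and 1 fell, shares close to the 9.09% and 9.97% of all genes tested, so the counts are no result about copper genes. ATP7A, the copper-transporting ATPase of the Golgi, read 7.54, 7.83 and 8.14 with bevacizumab, against 6.56, 6.71 and 6.89 in controls, a difference of 1.12 or 2.17-fold (limma adjusted p = 0.012). The call was lost without control 1 or control 2, and its other probe set, 205197_s_at, differed by 0.67 without passing, with groups that did not overlap. COMMD1, a copper homeostasis factor, fell by 0.33 (adjusted p = 0.038), a call made in 1 of 6 fits with an array left out. SLC31A2 and the copper and zinc superoxide dismutase gene SOD1 differed by -0.45 and -0.26 (adjusted p = 0.085 and 0.09), with groups that did not overlap.

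Among glucocorticoid-related genes 2 of 8 tested rose and 1 fell, beside 9.09% and 9.97% of all genes tested. NR3C1, the glucocorticoid receptor gene, read 12.21, 12.22 and 12.14 with bevacizumab, against 11.36, 11.52 and 11.59 in controls, a difference of 0.70 or 1.62-fold (limma adjusted p = 0.0080). KLF9, a transcription factor gene induced by the hormone, read 8.87, 8.76 and 9.18 with bevacizumab, against 7.75, 7.26 and 7.01 in controls, a difference of 1.59 or 3.02-fold (adjusted p = 0.0081). CRISPLD2, also known as a glucocorticoid-induced gene, went the other way at 5.11, 5.07 and 4.31 with bevacizumab, against 6.87, 6.53 and 6.47 in controls (difference -1.79, adjusted p = 0.0084). These 3 passed in 6 of 6 fits with an array left out. TSC22D3, a glucocorticoid-induced leucine zipper gene, differed by 0.80 (adjusted p = 0.059), and its probe set 207001_x_at by -0.0067. With the ACTB covariate KLF9 passed (2.16, adjusted p = 0.039), whereas NR3C1 (0.53) and CRISPLD2 (-1.89) did not.

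Of 10 other genes known to respond to metals or oxidative stress, 0 rose and 2 fell, beside 9.09% and 9.97% of all genes tested. NQO1, a quinone reductase gene, read 10.89, 11.03 and 10.45 with bevacizumab, against 11.84, 11.54 and 11.57 in controls, a difference of -0.86 (limma adjusted p = 0.024). Its probe set 201467_s_at differed by -1.04 and passed, and 201468_s_at by -0.98 and did not. GCLM, the regulatory subunit gene of glutathione synthesis, fell by 0.45 on its brightest probe set (adjusted p = 0.026), while 234986_at differed by -0.22 and 236140_at by 0.07 without passing. Both calls were lost without any 1 of the controls, and that of GCLM also without bevacizumab 2. CSRP1, a cysteine-rich LIM protein gene, did not pass (-0.39, adjusted p = 0.073). PGF, the placental growth factor gene reported as an MTF1 target in mouse cells, differed by 0.37 on its brighter probe set, with overlapping groups (adjusted p = 0.14). Its other probe set, 209652_s_at, went the opposite way at 6.63, 6.70 and 6.03 with bevacizumab, against 8.14, 7.51 and 7.57 in controls, and passed over all probe sets (-1.29, adjusted p = 0.026), so no direction was taken for PGF.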

How the data were processed

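RNA of 6 xenograft samples was measured on Affymetrix human arrays, 1 array per sample. The authors deposited GCRMA expression values, taken here as log2 from their range of 2.23 to 15.99; GCOS 1.1.1.052 and GCRMA are named in the submitters' processing notes. Scanner files were not used here, so background correction and slide could not be varied. No per-sample column was left unused. The platform annotation gave 41097 probe sets 1 gene, 1801 several and 11777 none, and for 41043 the gene identifier set the symbol. A gene was represented by its brightest single-gene probe set (mean of all arrays), and features with a mean of at least 4 were tested: 10233 genes and, in a second fit, 18475 probe sets. The test was limma 3.58.1 under R 4.3.3 (lmFit, eBayes, no covariate, two-sided, Benjamini-Hochberg over all features, threshold 0.05). Log2 differences are bevacizumab minus control, and intervals are 95% and unadjusted. The number of arrays limits the precision. No array dates or batches were given in the sources used here.

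The members, lists and tests were chosen with earlier results of these data known. The text names all members, up to 4 tested genes of each list with the smallest p, the other metallothionein genes with a probe set and the 5 genes closest in profile. With a mean of at least 4, 1 astrocyte, 1 oligodendrocyte, 3 neuron and 1 keratinocyte markers were tested, and 0 passed. Of the red blood cell list 0 markers were tested, so it could give no call. So few markers do not show whether these cell types changed. Of the 7 U87 markers tested 1 was higher and 1 lower, beside 9.09% and 9.97% of all genes tested. CHI3L1 of that list read 12.9, 13.0 and 12.0 with bevacizumab, against 11.0, 10.9 and 11.3 in controls. NES read 9.8, 9.5 and 9.8 with bevacizumab, against 11.1, 10.7 and 10.8 in controls. Of the muscle list only 1 marker was tested, and it was higher. Of the 2 endothelial, 6 fibroblast and 1 macrophage markers tested 0 passed. The procedure was tested on simulated data. With 200 of 10233 genes changed, it recovered 18% of log2 changes of 0.5, 60% of 1 and 94% of 2. Among probe sets it recovered 8% of changes of 0.5 and 40% of 1. Fewer genes passed there than in the real data (140 against 1950), so these shares need not carry over. Alternatives covered the filter, a floor, centring, quantile normalization, probe set averaging, a variance trend, the ACTB covariate, a replicate block and each array left out.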

Additional observations from a re-analysis of the deposited data

How the results depend on the processing

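No metallothionein gene and no MTF1 passed in any of the 15 settings tried, and MT1E, MT1F, MT2A and MTF1 kept their sign at the gene level. With 3 arrays per group a difference near 0 changes sign easily. When each array was left out in turn, MT1E probe set 216336_x_at ran from -0.12 to 0.00081, MT1F probe set 213629_x_at from -0.16 to 0.23, MT1G from -0.014 to 0.084, MT1H from -0.015 to 0.11, MT1M from -0.26 to 0.32, MT1X from -0.083 to 0.15 (probe set 204326_x_at from -0.072 to 0.12) and MTF1 probe set 227150_at from -0.020 to 0.17. With arrays centred on their median, the MT1G probe set stood at -0.0021 and MT1X probe set 204326_x_at at -0.00022. With the ACTB covariate MT1M was at -0.12, MT1X at -0.016 and MTF1 probe set 205323_s_at at 0.071. The cause of these changes was not tested.

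SLC30A1 was negative in all 15 settings, from -1.26 to -0.70 (adjusted p from 0.014 to 0.22). It was the 1 member gene past the threshold with a minimum of 6, with median centring, with quantile normalization, with averaged probe sets and with a variance trend, and leaving out an array gave 0 to 1 member genes. Of its probe sets, 2 passed with a minimum of 6, with centring and with quantile normalization, and 0 with no filter or with the ACTB covariate. Probe set 228181_at passed in each of 6 fits with an array left out.

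Over all genes, the counts of 930 higher and 1020 lower became 267 and 331 without the filter, when more features are tested, 13 and 11 with the ACTB covariate and 568 and 336 with the replicate block. Leaving out an array gave 296 to 1140 higher and 262 to 934 lower. With no filter, 1 zinc importer and 1 glucocorticoid gene were higher, no copper gene was (0), and 0 glucocorticoid and 0 stress genes were lower. With the ACTB covariate the counts were 0 importers, 0 copper genes in either direction, 1 glucocorticoid gene higher and 0 lower, and 0 stress genes lower. A minimum of 6 left 0 glucocorticoid genes lower, because CRISPLD2 lay under it and 7 genes of that list were tested instead of 8. The number of glucocorticoid genes higher became 3 with that minimum, with median centring and with quantile normalization. Averaged probe sets left 1 stress gene lower and 2 importers higher. A variance trend gave 4 importers higher and 2 copper genes lower. Same-numbered arrays did not deviate together (correlations of -0.048, -0.012 and -0.053 over tested genes), and no array correlated best with its own number. The replicate block, which shares only numbers here, left 0 copper and 1 stress gene lower and changed no call of a member gene (SLC30A1 adjusted p = 0.054). Leaving out an array gave 1 to 3 importers higher, 0 to 1 copper genes higher, 0 to 2 copper genes lower and 0 to 3 stress genes lower.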
